A study of Mus musculus with 10 samples.

Results

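The interferon response genes are 33 listed genes, of which 31 were measured among the 18193 genes of the series that had a probe set naming 1 gene. They were found by symbol in the platform's gene table, and for each the probe set with the highest mean log2 intensity over the 10 arrays was used. Isg15, a ubiquitin-like protein, shares its only listed probe set with another gene and was not analysed here, and Ifi44 was not analysed here either.

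The cells were secondary mouse embryonic fibroblasts of a 129/SvJ x C57/B6 hybrid strain in which doxycycline switches on OSKM (the factors Klf4, Myc, Pou5f1 and Sox2), and their RNA was read on Affymetrix arrays. Induced cells were given doxycycline, labelled as 2 ug/ul, in medium with 15% serum for 96 h, and were labelled by cohort as having divided 0, 1, 2, or 3 or more times. Control cells were not induced and were starved in 0.5% serum for 96 h, so doxycycline and serum differ together between every cohort and the control and cannot be told apart. Every group had 2 arrays. The labels call the samples of 3 or more divisions and of the control biological replicates and the others replicates, without naming cultures or animals, so p-values measure the spread between these samples, which may be technical in part. Samples of 3 or more divisions and of the control were registered as 4 arrays with one style of labels and the other cohorts as 6 arrays with another. Comparisons between the 0, 1 or 2 division cohorts and the control, and between 3 or more divisions and those cohorts, cross these sets. In them the set and the group cannot be told apart.

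Type I interferons bind a receptor made of Ifnar1 and Ifnar2 and act through the kinases Jak1 and Tyk2. The transcription factors Stat2 and Irf9 then act in a complex that binds interferon-stimulated response elements in target promoters, while interferon gamma has its own receptor and acts through gamma-activated sites. Many of the targets restrict viruses, and fibroblasts keep a low tonic level of this program even without infection.

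Promoters of 6 members that moved in these data are shown first. Each holds a match to the interferon-stimulated response element, the gamma-activated site or both. The windows are from RefSeq (GRCm38.p6), from 250 bases before to 50 bases after the annotated start, written 5′ to 3′ along the gene. Capitals mark matches to the response element, which is GAAA, any 2 bases and GAAA again, or to the gamma-activated site TTCNNNGAA, searched on both strands.
Ifit3, chr19:34583279-34583578, plus strand: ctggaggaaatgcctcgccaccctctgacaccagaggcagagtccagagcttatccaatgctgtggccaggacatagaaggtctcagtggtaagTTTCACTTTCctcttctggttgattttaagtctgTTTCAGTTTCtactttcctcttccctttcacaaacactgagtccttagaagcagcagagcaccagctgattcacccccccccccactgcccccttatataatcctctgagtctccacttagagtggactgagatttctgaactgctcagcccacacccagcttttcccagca
Gbp2, chr3:142620413-142620712, plus strand: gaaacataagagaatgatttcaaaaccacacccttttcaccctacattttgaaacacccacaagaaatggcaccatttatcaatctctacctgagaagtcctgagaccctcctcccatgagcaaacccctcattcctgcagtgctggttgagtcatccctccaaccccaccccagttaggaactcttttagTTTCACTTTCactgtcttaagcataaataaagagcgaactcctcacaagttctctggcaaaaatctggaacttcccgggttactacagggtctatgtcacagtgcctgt
Stat2, chr10:128270248-128270547, plus strand: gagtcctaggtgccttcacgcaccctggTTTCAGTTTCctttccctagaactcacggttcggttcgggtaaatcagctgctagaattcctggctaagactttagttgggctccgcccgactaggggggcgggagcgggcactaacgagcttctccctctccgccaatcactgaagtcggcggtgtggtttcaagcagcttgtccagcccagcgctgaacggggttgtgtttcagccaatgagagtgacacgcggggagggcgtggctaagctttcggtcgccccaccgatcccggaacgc
B2m, chr2:122147437-122147736, plus strand: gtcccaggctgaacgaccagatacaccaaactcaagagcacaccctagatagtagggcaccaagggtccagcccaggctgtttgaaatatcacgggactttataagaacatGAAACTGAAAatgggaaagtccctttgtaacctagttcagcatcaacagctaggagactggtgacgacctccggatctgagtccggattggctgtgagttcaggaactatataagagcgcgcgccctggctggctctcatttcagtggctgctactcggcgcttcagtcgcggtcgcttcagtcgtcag
Oas1a, chr5:120907476-120907775, minus strand: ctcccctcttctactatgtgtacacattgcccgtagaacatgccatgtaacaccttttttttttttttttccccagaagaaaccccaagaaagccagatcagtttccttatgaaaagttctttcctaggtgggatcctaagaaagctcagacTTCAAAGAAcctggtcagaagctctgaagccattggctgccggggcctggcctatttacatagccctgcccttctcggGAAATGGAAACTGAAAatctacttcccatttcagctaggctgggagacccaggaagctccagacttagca
Ifi202b, chr1:173982795-173983094, minus strand: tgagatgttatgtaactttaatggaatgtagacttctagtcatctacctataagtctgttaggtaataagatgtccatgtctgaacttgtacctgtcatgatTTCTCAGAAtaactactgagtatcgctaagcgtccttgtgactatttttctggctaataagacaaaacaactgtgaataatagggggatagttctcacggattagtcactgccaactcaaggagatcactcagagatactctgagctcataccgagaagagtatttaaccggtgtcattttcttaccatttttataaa
Ifit3 held 2 response elements, and Gbp2, Stat2 and B2m held 1 each. In Oas1a, 2 response elements overlap each other close to the start, and the shorter run in capitals upstream is a gamma-activated site. Ifi202b had a gamma-activated site and no match to the response element letters in this window.
RefSeq windows were found for 27 of the 33 listed genes, 31 windows in all. A response element was present in 15 of the 31 windows (48.4%), against 3.44% of all 32851 windows. A gamma-activated site was present in 9 of the 31 (29.0%), against 8.30% of all windows. These matches describe the letters and are not evidence of binding.

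Interferon response genes were lower in induced cells labelled with 3 or more divisions than in starved cells. Of the 31 measured members 16 fell, 2 rose and 13 did not pass limma's test (Benjamini-Hochberg adjusted p under 0.05 over all genes). Of the falls 10 were at least 2-fold, a size not counted over all genes. In the same comparison 27.6% of all genes were called, 11.7% as lower and 15.9% as higher, against 58.1% of the members called and 51.6% called lower. The members were chosen with earlier results of these data known, so this contrast is a description and not an independent test. With the replicate number as a block 18 members fell and 2 rose (37.8% of all genes, 17.3% lower and 20.4% higher). The median log2 change of the members was -0.67, against 0.02 over all genes. Both arrays of the cohort lay below both control arrays for 22 members (28.6% of all genes did so). Both groups are from the earlier set of arrays. Without replicate 2 of the cohort 6 members were called, and without control replicate 1 the number was 11. The plot of changes by gene sets these values beside those of the 0 division cohort.

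**Figure D1:**
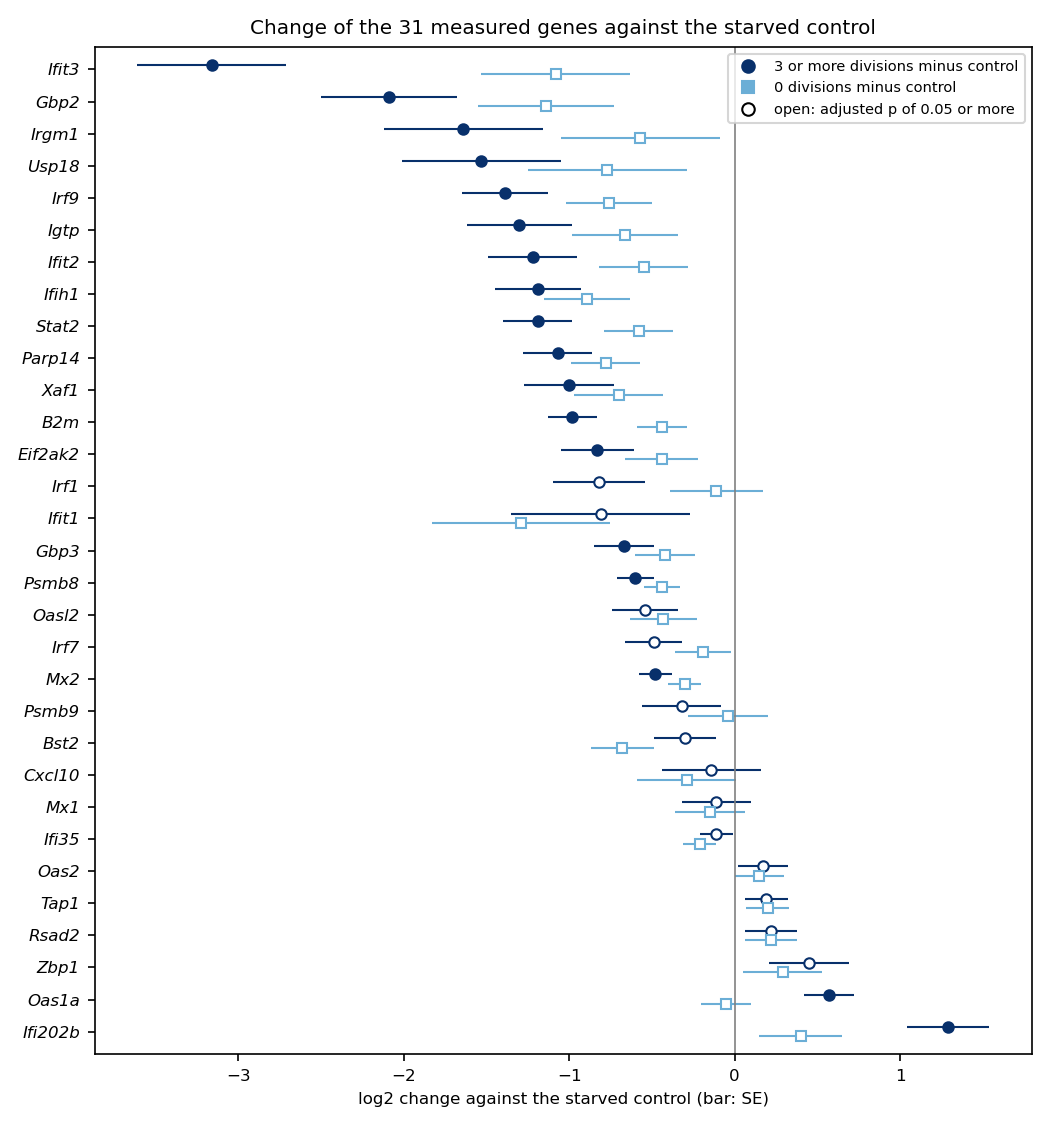
Log2 change of the 31 measured interferon response genes against the starved control, with bars for the SE. Circles are 3 or more divisions and squares 0 divisions, filled where the adjusted p was under 0.05, and no square is filled. Ifit3 (-3.16) lies at the top and Ifi202b (1.29) at the bottom.

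The antiviral effectors held the largest change. Ifit3, which binds with Ifit1 to foreign RNA, read 6.28 and 5.91 (log2 intensity) on the arrays of 3 or more divisions, against 9.5 and 9.01 on the control arrays. The groups were far apart, with a log2 change of -3.16 ± 0.45 (SE, n = 2 per group) or 8.95-fold lower (limma adjusted p = 0.00176). Ifit2, of the same family, read 7.55 and 7.37 against 8.76 and 8.61 in the control, a change of -1.22 ± 0.27 (adjusted p = 0.0122). Ifit1 read 6.02 and 5.87 against 7.48 and 6.04, so its cohort arrays lay just below the lower control array, and it did not pass (-0.81 ± 0.54, adjusted p = 0.325). In the RefSeq gene order Ifit2 and Ifit3 are direct neighbours, and 3 protein-coding genes lie between Ifit3 and Ifit1.

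The other effectors varied. The GTPase gene Mx2 was 1.40-fold lower (4.81 and 4.75, against 5.22 and 5.32 in the control, adjusted p = 0.00895), while Mx1 read 3.82 and 3.78 against 4 and 3.83 and did not pass. Oas1a, an enzyme that makes 2-5A to activate RNase L, rose to 6.39 and 6.72, against 6.13 and 5.84 in the control (0.57 ± 0.15, adjusted p = 0.0264). Its relatives Oas2 (0.17 ± 0.15) and Oasl2 (-0.54 ± 0.20) did not pass. Neither did Rsad2 (viperin, 0.22 ± 0.16), read at 5.36 and 5.52 against 5.23 and 5.20, or Bst2 (tetherin, which holds budding virus at the membrane, -0.30 ± 0.19). In all, 3 of 10 measured effectors fell and 1 rose, 40% called and 30% lower, against 27.6% and 11.7% of all genes. With the block 30% were lower, against 17.3% of all genes.

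The factors that carry the interferon signal to the genome were lower as well. Stat2 read 4.34 and 3.91 after 3 or more divisions, against 5.5 and 5.12 in the control (-1.19 ± 0.21, adjusted p = 0.00415). A second Stat2 probe set gave a smaller difference of -0.69, with means of 4.19 against 4.89. Both Stat2 probe sets read below the median gene (6.50). Irf9, the DNA-binding partner of Stat2, read 6.18 and 6.20 against 7.92 and 7.23 (-1.39 ± 0.26, adjusted p = 0.00536). No array of the cohort reached the lowest control array for either gene. Irf1, a factor induced strongly by interferon gamma, read 7.78 and 7.13 against 8.48 and 8.07, and Irf7, the factor that amplifies interferon production, 3.76 and 3.58 against 4.34 and 3.99. Neither passed without the replicate number in the model (adjusted p = 0.0661 and 0.0618), and both passed as lower with it as a block (adjusted p = 0.00132 and 0.0235). Usp18, which removes ISG15 and damps the receptor, read 4.69 and 4.71 against 7.13 and 5.34. Its call (-1.53 ± 0.48, adjusted p = 0.0490) was lost in 9 of 10 fits that left out 1 array, and its control arrays differed by 1.79.

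Among sensors of foreign nucleic acid, Ifih1 (MDA5, a sensor of long double-stranded RNA) fell to 6.41 and 6.12, against 7.75 and 7.16 in the control (-1.19 ± 0.26, adjusted p = 0.0116). Eif2ak2 (PKR, a kinase that stops translation) read 7.08 and 6.79 against 7.90 and 7.62 (-0.83 ± 0.22, adjusted p = 0.0241). Its other probe sets differed by -0.91 and -0.63. Zbp1, a sensor of Z-form nucleic acid, read 5.32 and 5.53 against 5.29 and 4.65 and did not pass (0.45 ± 0.24), while its second probe set had a mean of 5.32 against 4.36.

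All 4 measured GTPases of the guanylate-binding and immunity-related families fell, while 11.7% of all genes were called lower. These proteins attack the vacuoles of intracellular parasites and bacteria. Gbp2 read 4.89 and 4.80, against 6.61 and 7.25 in the control (-2.09 ± 0.41, 4.24-fold lower, adjusted p = 0.00729), by a probe set of a type that can match related transcripts. Its other probe set gave a smaller difference of -1.36. Irgm1 read 6.30 and 6.05 against 7.30 and 8.34 (-1.64 ± 0.48, adjusted p = 0.0379). Igtp read 5.33 and 5.24 against 7.05 and 6.11 (-1.30 ± 0.32), and Gbp3 read 4.62 and 4.85 against 5.55 and 5.27 (-0.67 ± 0.18). In each of the 4 genes both cohort arrays lay below both control arrays (28.6% of all genes did so). None of the 4 was among the members that stayed called in every fit that left out 1 array.

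Genes of antigen presentation moved unevenly. B2m, the shared light chain of class I molecules, read 12.72 and 12.5 in the cohort, against 13.67 and 13.51 in the control (-0.98 ± 0.15, adjusted p = 0.00266). Its second probe set differed by -1.05. Psmb8, a subunit of the immunoproteasome, read 5.42 and 5.5 against 6.05 and 6.08 (-0.60 ± 0.11, adjusted p = 0.00548). A dim second probe set of Psmb8 had means of 3.63 against 3.53. Psmb9, another such subunit, and Tap1, a subunit of the peptide transporter, lie beside Psmb8 in the gene order, with Tap1 in the middle and 0 other protein-coding genes among the 3. They did not pass: Psmb9 read 6.02 and 5.65 against 6.31 and 6.01 (-0.32 ± 0.24), and Tap1 read 8.5 and 8.48 against 8.26 and 8.34 (0.19 ± 0.13).

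Of the remaining members, Parp14, an ADP-ribosyltransferase, read 4.82 and 4.37 against 5.66 and 5.68 in the control (-1.07 ± 0.21, adjusted p = 0.00724). A dimmer Parp14 probe set had means of 3.75 against 3.5. Xaf1, a proapoptotic interferon target, read 7.08 and 6.87 against 8.27 and 7.67 (-1 ± 0.27, adjusted p = 0.0265). The chemokine gene Cxcl10 (4.23 and 4.44 against 4.70 and 4.25) and Ifi35 (10.19 and 10.16 against 10.24 and 10.33) did not pass. The plot of 12 members by array shows the patterns described here and in the following paragraphs.

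**Figure D2:**
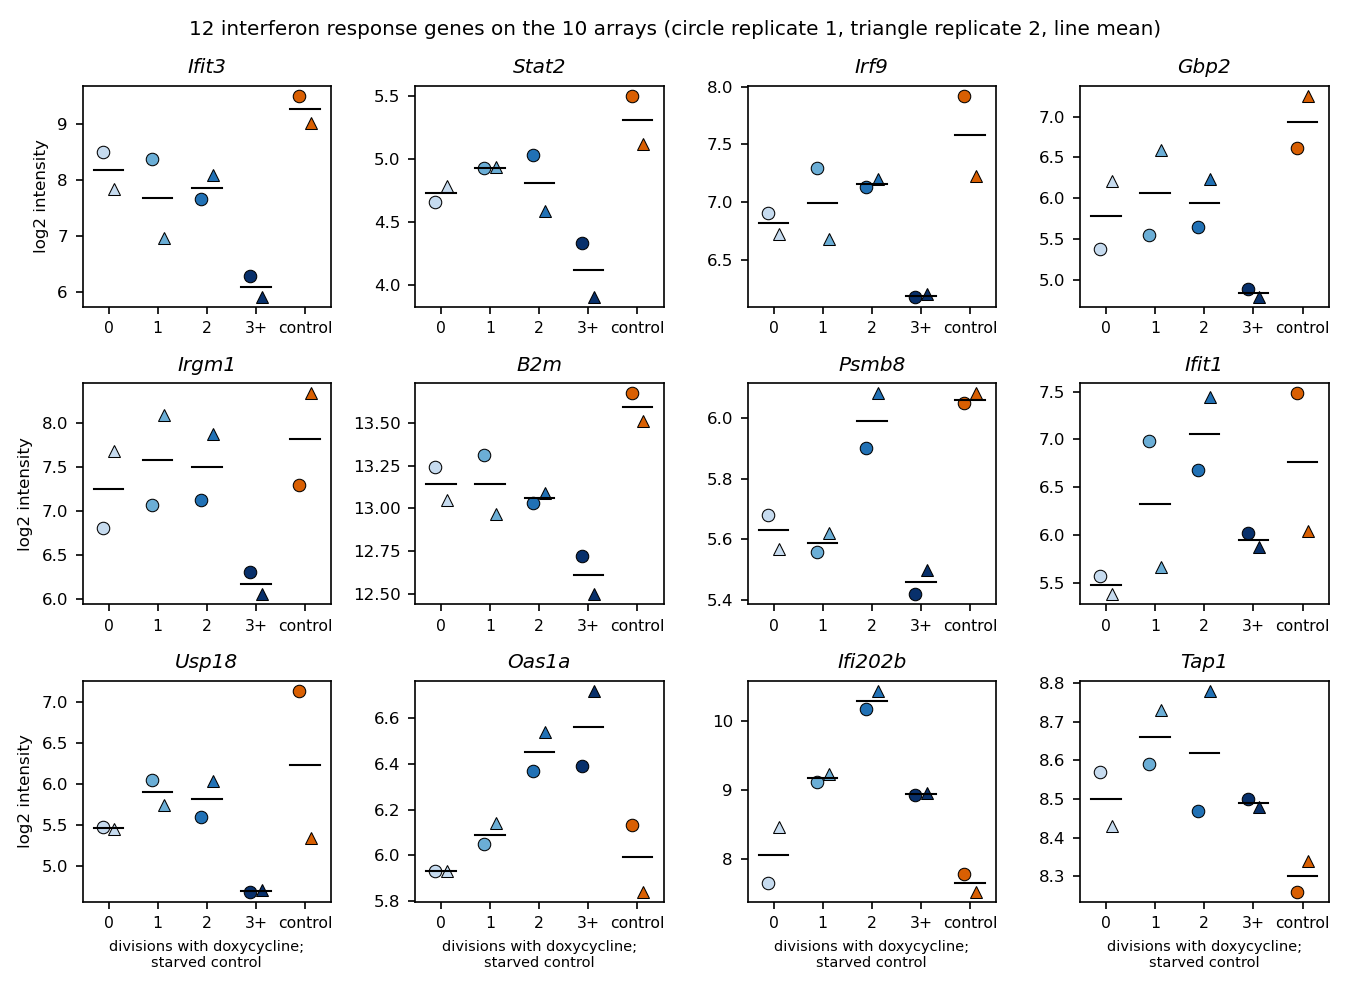
Log2 intensity of 12 interferon response genes on the 10 arrays, with the induced cohorts of 0, 1, 2 and 3 or more (3+) divisions and the starved control from left to right. Circles are replicate 1, triangles replicate 2 and lines the mean of the 2 arrays, and the vertical scale differs between genes. Ifit3, Irf9, Gbp2 and B2m are lowest after 3 or more divisions, and Ifi202b is highest after 2.

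Ifi202b ran against the family. This p200 protein binds DNA and, in mice, antagonises the Aim2 inflammasome. It read 7.65 and 8.46 after 0 divisions, 9.12 and 9.23 after 1, 10.17 and 10.44 after 2, and 8.92 and 8.96 after 3 or more, against 7.78 and 7.52 in the control. Its arrays were thus highest after 2 divisions, and after 0 divisions they straddled the control. Against the control the log2 change was 1.53 ± 0.25 after 1 division (adjusted p = 0.0389), 2.65 ± 0.25 or 6.29-fold after 2 (adjusted p = 0.00383) and 1.29 ± 0.25 after 3 or more (adjusted p = 0.00626). It was also higher after 2 divisions than after 0 (2.25 ± 0.25, adjusted p = 0.0366), a comparison within the later set of arrays in which 0.055% of all genes were called (1.13% with the block, 0.379% lower and 0.748% higher), and it was lower after 3 or more than after 2 (-1.36 ± 0.25, adjusted p = 0.0292). The slope over 0, 1 and 2 divisions was 1.13 ± 0.13 per division with an adjusted p of 0.0955, against 0.00374 once the replicate number was a block. The only probe set of Ifi202b is of a type that can match several transcripts. Ifi204, of the same p200 family and named after its values were seen, was also highest after 2 divisions. It read 3.75 and 3.73 after 0 divisions, 5.05 and 4.43 after 1, and 6.27 and 5.18 after 2. After 3 or more it read 4.14 and 3.71, against 3.42 and 3.52 in the control. Ifi203, another p200 gene, read 5.06 and 5.07 after 2 divisions, against 5.32 and 5.19 in the control. For the slope limma called 0 members and 0% of all genes. An unadjusted p under 0.05 was found for 5 members, a level not counted over all genes. With the block Ifi202b was the 1 member called, against 2.17% of all genes (0.819% lower, 1.35% higher).

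Oas1a was the other member that rose, and it did so without the drop after 2 divisions. It read 5.93 on both arrays of 0 divisions, 6.05 and 6.14 after 1, 6.37 and 6.54 after 2, and 6.39 and 6.72 after 3 or more. It was higher after 3 or more divisions than after 0 (0.62 ± 0.15, adjusted p = 0.0336).

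In induced cells labelled with 0 divisions the members lay below the control, but none passed singly. Of the 31 members 26 had a log2 change below 0, with a median of -0.44, against 50.9% of all genes below 0. Limma called 0 members (0.297% of all genes, 0.077% lower and 0.22% higher), and 13 had an unadjusted p under 0.05. The share of all genes under that unadjusted level was not counted, so this number has no background. With the replicate block 2 passed as lower (3.25% of all genes, 0.89% lower and 2.36% higher). These were Gbp2 (-1.14 ± 0.23, SE with the block, adjusted p = 0.0391) and Parp14 (-0.78 ± 0.16, adjusted p = 0.0432). Both cohort arrays lay below both control arrays for 18 members, against 19.3% of all genes. The largest difference was that of Ifit1, at 5.57 and 5.38 against 7.48 and 6.04 in the control (-1.29 ± 0.54), and it did not pass.

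After 1 division the only member called was Ifi202b (1.24% of all genes, 0.302% lower and 0.94% higher). After 2 divisions Ifi202b rose and Mx2 fell (6.12% of all genes, 2.06% lower and 4.07% higher). With the replicate block 5 members passed in each. After 1 division these were Ifit3, Mx2, Psmb8 and Parp14 as lower and Ifi202b as higher (7.02% of all genes, 2.55% lower and 4.47% higher). After 2 divisions they were Ifit3, Mx2, Gbp2 and B2m as lower and Ifi202b as higher (15.5% of all genes, 6.43% lower and 9.11% higher). Ifit3 read 8.37 and 6.96 after 1 division and 7.65 and 8.08 after 2, against 9.5 and 9.01 in the control, and its changes were -1.59 and -1.39 (adjusted p = 0.148 and 0.118, and 0.0315 and 0.0278 with the block). The median change of the members was -0.37 after 1 division and -0.21 after 2. These comparisons share the control arrays, so their values are not independent of each other.

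Among the 16 members that fell after 3 or more divisions, the means of the cohorts of 0, 1 and 2 divisions all lay between that cohort and the control in 15, the exception being Mx2. The same held for 86.1% of all 2125 genes called lower there. These genes were chosen for a low cohort and a high control on the same arrays, which favours this order, so it is a description alone. The median change of the 16 against the control was -0.62 after 0 divisions, -0.54 after 1, -0.50 after 2 and -1.19 after 3 or more, the last being the value they were chosen by. Over all 2125 genes these medians were -0.30, -0.34, -0.45 and -0.94, and over all 31 members they were -0.44, -0.37, -0.21 and -0.67. Between 2 and 0 divisions the median difference of these 16 was 0.14, with 5 of them below 0, against -0.17 and 77.9% below 0 for all 2125 genes. Over all 31 members Ifi202b was the 1 called in that comparison, with and without the block. Ifit1 differed from the others, at 6.68 and 7.44 after 2 divisions and 5.57 and 5.38 after 0 (1.58 ± 0.54), and it did not pass.

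Between 3 or more and 0 divisions, 1 member fell, Ifit3 (-2.08 ± 0.45, adjusted p = 0.0223), and Oas1a rose, while 13.9% of all genes were called (5.44% lower, 8.46% higher). With the replicate block 7 members fell and 2 rose (25.6% of all genes, 11.2% lower and 14.4% higher), the falls being those of Eif2ak2, Stat2, Irf1, Ifit3, Gbp2, Irgm1 and B2m. Against 2 divisions, Psmb8 (-0.53 ± 0.11, adjusted p = 0.0382) and Ifi202b were lower, and 5.97% of all genes were called (2.52% lower, 3.46% higher). With the block 12 members were lower and 0 higher, while 19% of all genes were called (8.85% lower, 10.1% higher). They included Ifit3 (-1.77 ± 0.34, SE with the block, adjusted p = 0.0103), Irf9 (-0.98 ± 0.20, adjusted p = 0.0130) and Irgm1 (-1.33 ± 0.28, adjusted p = 0.0147). Both comparisons cross the registered sets of arrays.

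**Figure D3:**
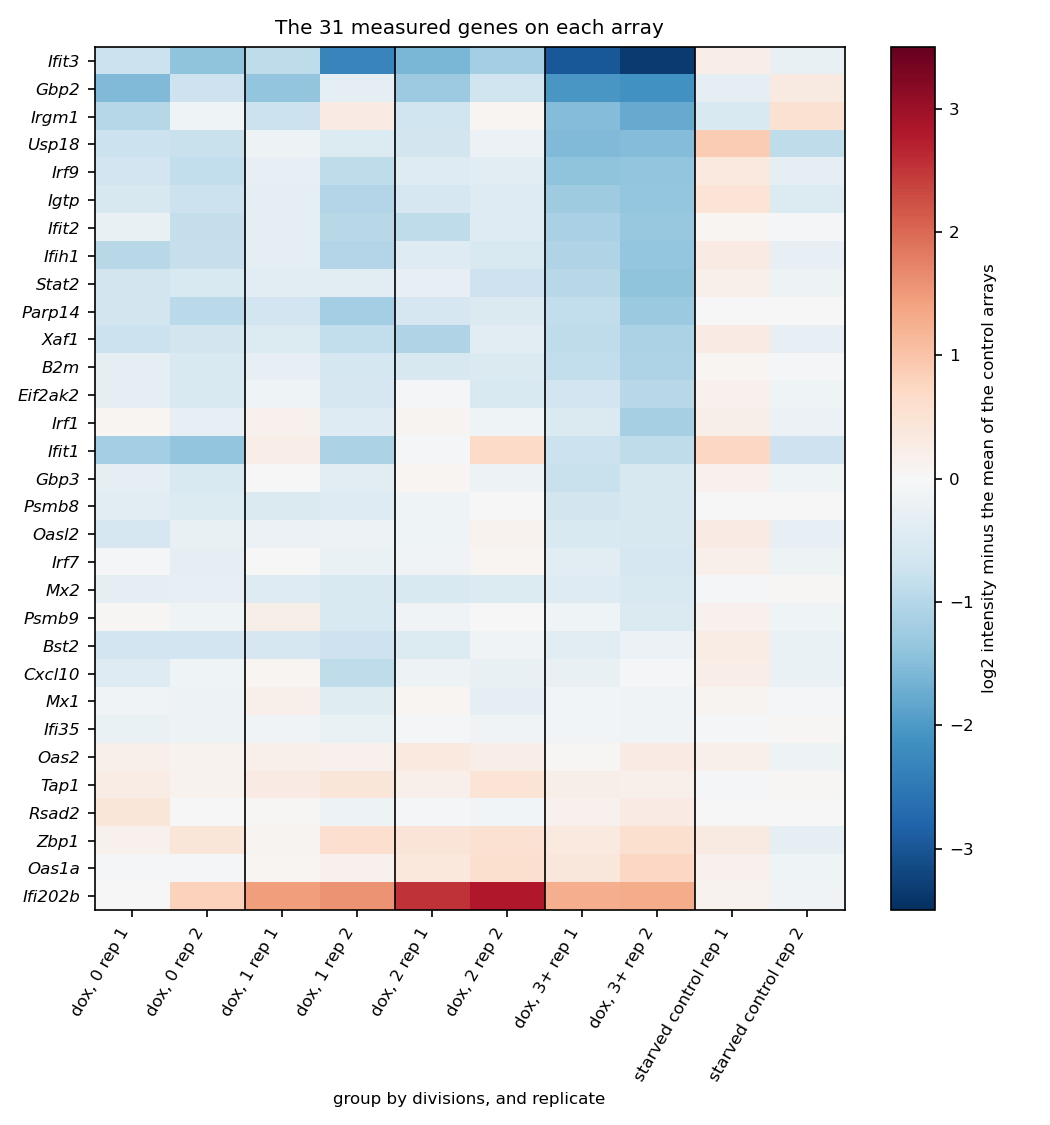
Log2 intensity of the 31 measured interferon response genes on each array minus the mean of the 2 control arrays, with blue below and red above it. Genes run from the largest fall after 3 or more divisions (Ifit3) down to the largest rise (Ifi202b), and the columns of 3 or more divisions are the bluest for most genes.

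Same-group arrays differed in ways that members did not share. Gbp2 and Irgm1 were higher on replicate 2 in 4 of 5 groups: Irgm1 read 6.81 and 7.68 after 0 divisions, 7.07 and 8.10 after 1, 7.13 and 7.88 after 2, and 7.30 and 8.34 in the control. After 3 or more divisions these 2 genes differed little between the arrays (0.24 and 0.10 higher on replicate 1, for Irgm1 and Gbp2). Ifit1, Ifit3 and Igtp were higher on replicate 1 in 4 of 5 groups and lower on it after 2 divisions. For 3 members, Eif2ak2, Irf1 and Mx1, replicate 1 was the higher in all 5 groups, and for 0 members replicate 2 was. Such a shared sign was found for 9.68% of the members and for 24.5% of all genes.

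**Figure D4:**
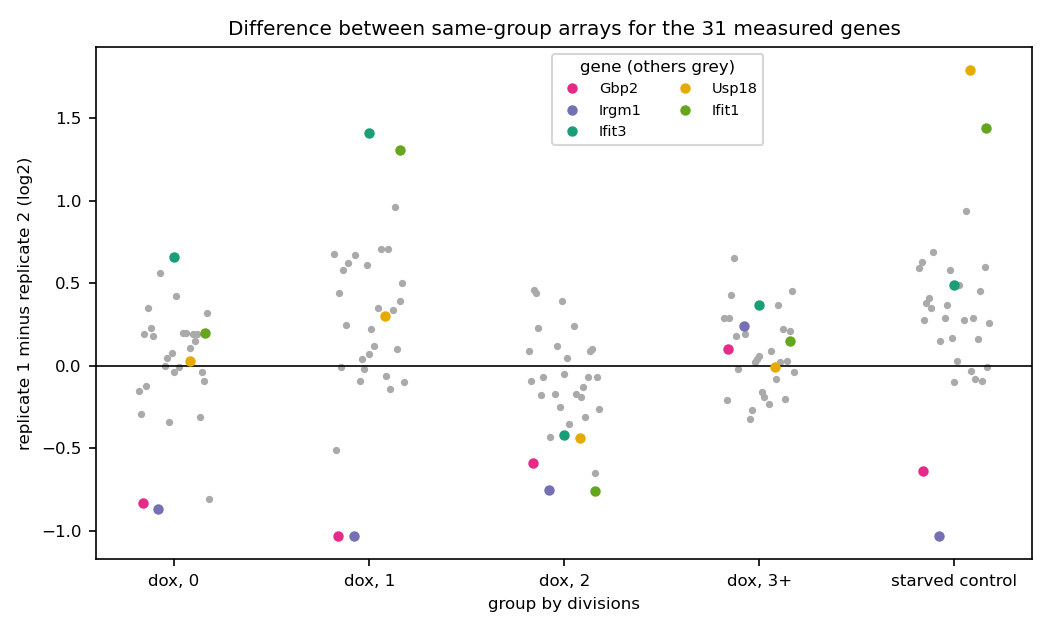
Replicate 1 minus replicate 2 in log2 intensity for each of the 31 measured interferon response genes (dots), by group. In the control Usp18 (1.79) and Ifit1 (1.44) lie highest and Irgm1 (-1.03) lowest, and after 2 divisions most genes lie below 0.

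Genes of the wider pathway come from lists that, like the members, were chosen with earlier results of these data known. Of 13 measured receptor and signalling genes 5 fell and 0 rose after 3 or more divisions against the control, 38.5% lower against 11.7% of all genes. Ifngr2, a chain of the interferon gamma receptor, read 6.54 and 6.43 in the cohort, against 8.16 and 8.23 in the control (-1.71 ± 0.14, adjusted p = 0.000299). After 0 divisions its change was -0.65 ± 0.14, called as lower only with the block (adjusted p = 0.121, and 0.0336 with the block). Ifngr2 was also called as lower after 1 division (-0.90 ± 0.14, adjusted p = 0.0373) and 2 divisions (-1.12 ± 0.14, adjusted p = 0.00771). The other receptor chain Ifngr1 (-0.92 ± 0.15, adjusted p = 0.00293), the type I receptor gene Ifnar1 (-0.60 ± 0.14, adjusted p = 0.0145), the kinase gene Jak2 (7.91 on both arrays, against 8.29 and 8.43 in the control, named after its values were seen) and Stat3 (-0.54 ± 0.11, adjusted p = 0.00803) fell too. Ifnar2 (8.65 and 8.83 against 9.27 and 8.79), Tyk2 and the inhibitor gene Socs1 did not pass, and Jak1 passed only with the block (-0.59, adjusted p = 0.245, and 0.00422 with the block).

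Of 9 measured interferon genes 0 were called (27.6% of all genes), and 1 had an unadjusted p under 0.05, a level not counted over all genes. With the block 1 was lower, 11.1% of the list against 17.3% of all genes. The lowest change was that of Ifnz (-0.68), named after its values were seen. Ifnz read 5.97 and 5.35 in the cohort against 6.52 and 6.16 in the control. Ifnb1, interferon beta, read 3.93 and 4.27 in the cohort against 3.87 and 4.09 in the control, in the range of dim probe sets. Among 18 other sensors, adaptors and interferon regulatory factors 1 fell and 3 rose, 22.2% called against 27.6% of all genes, so the list did not exceed the background. RIG-I, named Ddx58 in the table, read 8 and 7.42 against 9.06 and 8.85 (-1.24 ± 0.22, adjusted p = 0.00491). Its adaptor Mavs read 8.99 and 9.17 against 7.82 and 8.05 (1.15 ± 0.18, adjusted p = 0.00293), and Trim25, the ubiquitin ligase that acts on RIG-I, was higher by 0.83 ± 0.12 (adjusted p = 0.00179), as was the dim Irf8 (0.55 ± 0.12). Irf3, the factor that these sensors activate, read 8.96 and 8.89 against 8.99 and 8.86.

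Of 56 further interferon-induced genes 12 fell and 3 rose, 21.4% lower against 11.7% of all genes. Calls in either direction made up 26.8% of the list, against 27.6% of all genes, so that share did not exceed the background. The largest falls were those of Ms4a4d (-2.09 ± 0.57), Ifi27 (-2.01 ± 0.28), Rtp4 (-1.97 ± 0.47) and Serping1, the inhibitor of complement C1 (-1.87 ± 0.51). The rises were those of Pnpt1, a mitochondrial RNA nuclease (1.76 ± 0.17), Ly6e (0.93 ± 0.18) and Ifitm3, which blocks viral entry (0.46 ± 0.11). Ifitm3 was also called as higher after 1 division (0.75 ± 0.11, adjusted p = 0.0251) and 2 divisions (1.04 ± 0.11, adjusted p = 0.00417). Of 15 further antigen presentation genes Erap1 (-0.61 ± 0.12) and Pdia3 (-0.62 ± 0.18) fell and the proteasome gene Psmb10 rose (0.47 ± 0.14), 13.3% lower and 20% called in all, near or below the shares over all genes. With the block the counts were 7 lower and 0 higher for receptors and signalling, 1 and 4 for sensors, 16 and 6 for induced genes, and 5 and 1 for antigen presentation, while 17.3% of all genes were lower and 20.4% higher.

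The response element was present in the windows of 9 of 13 members that fell after 3 or more divisions and had a RefSeq window, in 1 of 2 that rose and in 4 of 10 that did not pass. Windows of Irf9, Ifit2, Psmb8 and Xaf1 held no match among the falls, and those of Ifit1, Bst2, Cxcl10 and Rsad2 held one among the members that did not pass. The counts are too small to compare and describe the sequences alone.

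The fibroblast identity of the cells was checked with 10 marker genes, whose summed linear intensity was 59200 to 68200 after 3 or more divisions, 79200 to 94200 in the other induced cohorts and 108000 to 112000 in the control. Of these markers 7 fell after 3 or more divisions, among them Dcn (-1.98) and Pdgfra (-2.95), and Vim differed by 0.07. The 7 were 70% of the markers, while 11.7% of all genes and 51.6% of the members were called lower. With the block these shares were 80%, 17.3% and 58.1%. In bulk RNA, fewer cells that express a gene and less RNA per cell cannot be told apart. Summed intensity of the 12 macrophage markers was 530 to 592 after 3 or more divisions and 365 to 373 in the control, with Cd68 higher (3.54) and Lyz2 lower (-1.39), while Ptprc, which marks all leukocytes, had means of 3.84 and 3.75. The 8 measured lymphoid and dendritic markers summed to 175 to 183 and 175 to 177, with 0 called and 0 at an unadjusted p under 0.05, also with the block. The 8 endothelial markers summed to 468 to 522 and 216 to 250, with Tek higher (2.44, means of 8.21 and 5.77) and Kdr lower (-0.55). The other 6 endothelial markers were not called. As a measure of RNA integrity, Actb read higher at its 3-prime than its 5-prime probe set by 0.49 and 0.5 after 3 or more divisions, by 0.29 to 0.5 in the other cohorts and by 0.26 on both control arrays. The part of these values in the results was not tested.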

How the data were processed

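Total RNA of 10 samples was hybridised to Affymetrix arrays. The authors deposited 1 table of linear intensity for 45101 probe sets. RMA is the tool listed for 4 arrays, per the submitters' processing notes; for the other 6 the sources used here name none. Array medians were 31.4 to 33.95 intensity units, and the number of arrays limits the precision. No detection calls were given, and 18 of the 31 measured members had a mean below the median gene (6.50, log2), where differences are compressed. From the deposited intensities, log2 values with a floor of 1 were quantile normalized. Probe sets with 1 gene (34945) were named through the platform table, and for 34741 of these probe sets the gene ID matched RefSeq. The 932 with several genes and the 9211 unlisted were not named.

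Limma 3.58.1 (R 4.3.3) fitted 5 groups to 10 arrays (5 residual degrees of freedom), or a slope to 6 arrays, with adjustment over 18193 genes, two-sided. The fit was tested on simulated data. Members and gene lists were chosen with earlier results of these data known. Named genes were all members, 9 fixed pathway genes and, per pathway list, up to 4 called rises and 4 falls. Same-numbered arrays deviated together (r of 0.477 to 0.872 in 10 of 10 pairs of groups), so the numbers, which the labels do not tie to a culture, were taken as pairs. The unblocked fit stayed the main one as planned. The blocked result is printed where it changes a call or count. Exact permutation of 2 against 2 arrays cannot go below p = 0.333, so none was run. Other settings are listed after the results.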

Additional observations from a re-analysis of the deposited data

How the results depend on the processing

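For 3 or more divisions against the control, 18 members were called, and from 13 to 20 in the 7 other settings that kept all members and both arrays. Only 10 of 13 were called among genes brighter than the median. Leaving out 1 array gave 6 to 17 calls. The count was 6 without replicate 2 of that cohort and 11 without control replicate 1. Of the 18 called members 6 (Stat2, Irf9, Ifit3, Psmb8, B2m and Ifi202b) stayed called in all 10 of these fits. With the replicate block, leaving out 1 array, added after the data were seen, gave 16 to 20 calls. The cause of these shifts was not tested.

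With the replicate block the counts of called members were 2 for 0 divisions, 5 for 1 division and 5 for 2 divisions against the control, 9 for 3 or more against 0, 12 for 3 or more against 2, and 1 for the slope, while that of 2 divisions against 0 stayed at 1. Leaving out 1 array, these comparisons had 0 calls for 0 divisions, 0 to 1 for 1 division, 1 to 3 for 2 divisions, 0 to 1 for 2 against 0, 0 to 3 for 3 or more against 0, 0 to 4 for 3 or more against 2 and 0 for the slope. With the block as well, they had 0 to 1, 0 to 5, 1 to 7, 0 to 1, 2 to 11, 0 to 14 and 0 to 2, with 8 for 3 or more against 0 when either array of 1 division was left out. A floor of 16 gave 0 for 2 against 0, 0 for 3 or more against 0 and 1 for 3 or more against 2. The mean of all probe sets gave 1 for 3 or more against 2. Among brighter genes there were 1 for 2 divisions against the control and 0 for 2 against 0. Trend and robust eBayes gave 4 for 3 or more against 0 and 1 against 2. Fits of the compared arrays alone gave 0 for 1 division and 1 for 2 divisions against the control, 0 for 2 against 0, 4 for 3 or more against 0 and 5 against 2. No call of a named gene changed direction in any setting.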
